A study of Mus musculus with 2 samples.

Results

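Peaks of open chromatin in gene deserts of the newborn mouse thymus are described here. A desert peak is a peak of replicate 1 that overlapped a peak of replicate 2 by 1 bp or more, lay on an autosome, and had its midpoint over 100 kb from the transcription start site (TSS) of every protein-coding transcript. Of 150992 autosomal peaks of replicate 1, 101719 (67.4%) were shared with replicate 2, and 9625 of these (9.46%) were desert peaks. The other shared autosomal peaks were 24525 promoter peaks, within 1000 bp of a coding TSS, and 67569 distal peaks between those limits, called near distal peaks below. Membership rests on position and on sharing, and the score is not used directly. Stronger peaks were shared more often. In replicate 1 the median score was 50 for desert peaks and 37 for all its peaks in deserts.

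The data are DNase-seq, in which the enzyme DNase I cuts DNA that is free of nucleosomes, from thymus of B6NCrl mice at postnatal day 0, untreated, with males and females pooled. There was 1 group of 2 biological replicates, which carry the same donor label and different biosample labels, so the standard deviation (SD, n = 2) given below is the spread between these samples and may be partly technical. The deposited lists held 154812 peaks of 150 bp in replicate 1 and 139702 in replicate 2, on mouse build mm10 (GRCm38). The number of reads is not given in the sources used here. A single group allows no comparison of conditions and no p-value. As a check of the tissue label, shared promoter peaks were found at 32 of 32 listed T lineage transcription factor genes, 26 of 26 T cell receptor signalling genes and 26 of 26 early thymocyte genes. They were found at 11 of 19 T helper, regulatory and cytotoxic T cell genes (Il4, Il2, Il17a and Gzmb were among those with none). They were also found at 8 of 15 thymic epithelial genes (Foxn1, Psmb11 and Krt5 had none), 8 of 12 B cell, 11 of 15 myeloid, 6 of 10 erythroid, 5 of 12 endothelial and 5 of 12 mesenchymal genes. The counts were 21 of 48 for developmental regulators outside blood and 18 of 55 for neuronal adhesion and synapse genes. The share over all coding genes is not given here, so how far the T cell counts exceed it cannot be told. In a whole tissue, fewer cells with an open site and less opening per cell cannot be told apart.

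Gene deserts are long stretches without protein-coding genes. Many flank genes for transcription factors of development, and open sites inside them can be enhancers that act on a promoter over a long distance, as at several genes of the T cell lineage. Others flank genes of neurons and hold little open chromatin in blood cells. Deserts as defined here also hold the variable segments of the T cell receptor and immunoglobulin loci, which annotation lists apart from coding genes, and the start sites of many long non-coding RNAs.

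The sequences of 8 desert peaks are given first. In each line, the deserts are named by the coding genes on both sides, and capitals mark letters searched for on both strands. The letters were TGTGGT for RUNX proteins, AGGAAG for ETS proteins, CTTTGA for TCF7 and LEF1, and AGATAA for GATA proteins. For AP-1 they were TGANTCA, and for CTCF part of its core, CNAGGNGGC. E proteins bind E-boxes, searched as CAGCTG and as CACCTG. The CCAAT box of NFY was searched too and is not in capitals. The first 3 are the peaks with the highest ranks of score in both replicates outside antigen receptor loci, with scores of 139 and 140, 134 and 139, and 134 and 137 in replicates 1 and 2. The deposited score is a whole number per peak, from 1 to 149 on the autosomes. No source used here says what it counts.
Gm11361–Sox4, chr13:28512636-28512785, plus strand: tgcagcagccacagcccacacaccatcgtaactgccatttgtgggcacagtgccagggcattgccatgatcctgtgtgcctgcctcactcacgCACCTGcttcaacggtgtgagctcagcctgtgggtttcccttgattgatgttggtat
Zfat–Khdrbs3, chr15:68363336-68363485, plus strand: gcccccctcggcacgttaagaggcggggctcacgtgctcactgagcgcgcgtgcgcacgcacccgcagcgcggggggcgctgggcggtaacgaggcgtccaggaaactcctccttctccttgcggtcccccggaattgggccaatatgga
Ubr2–Mrps10, chr17:47139836-47139985, plus strand: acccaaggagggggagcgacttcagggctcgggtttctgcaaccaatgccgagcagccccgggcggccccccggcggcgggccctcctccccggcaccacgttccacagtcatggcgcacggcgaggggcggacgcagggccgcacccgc
The next 4 are the strongest peaks of the 3 largest clusters and the strongest peak in the desert beside Bcl11b, a transcription factor gene needed for T cell commitment. Their scores were 123 and 137, 123 and 125, 108 and 112, and 120 and 122. The fourth lay in an exon of a lincRNA gene, 274 kb from Bcl11b and nearer 3110018I06Rik, at 241 kb.
Vrk1–3110018I06Rik, chr12:107160276-107160425, plus strand: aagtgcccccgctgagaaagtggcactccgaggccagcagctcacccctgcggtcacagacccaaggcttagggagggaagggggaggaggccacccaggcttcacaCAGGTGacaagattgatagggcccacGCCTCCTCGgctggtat
Fstl4–Hspa4, chr11:53128776-53128925, plus strand: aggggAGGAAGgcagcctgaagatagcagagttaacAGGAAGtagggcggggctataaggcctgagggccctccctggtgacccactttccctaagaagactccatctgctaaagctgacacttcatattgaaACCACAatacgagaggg
3110018I06Rik–Bcl11b, chr12:107779776-107779925, plus strand: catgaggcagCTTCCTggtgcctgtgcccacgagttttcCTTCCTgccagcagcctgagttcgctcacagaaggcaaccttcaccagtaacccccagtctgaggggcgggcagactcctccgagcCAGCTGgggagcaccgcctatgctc
3110018I06Rik–Bcl11b, chr12:107729376-107729525, plus strand: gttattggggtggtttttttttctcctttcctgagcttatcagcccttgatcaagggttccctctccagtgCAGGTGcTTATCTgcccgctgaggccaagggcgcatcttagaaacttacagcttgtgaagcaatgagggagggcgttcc
The last is the desert peak farthest from any coding TSS, 2140 kb from Cdh20, with a score of 77 in both replicates.
Cntnap5b–Cdh20, chr1:102628176-102628325, plus strand: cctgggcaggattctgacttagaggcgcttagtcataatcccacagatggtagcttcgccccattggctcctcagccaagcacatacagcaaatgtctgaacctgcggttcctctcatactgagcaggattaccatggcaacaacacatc
The peaks in the Zfat–Khdrbs3 and Ubr2–Mrps10 deserts held the CCAAT box and none of the other letters searched, and had a GC content of 69.3% and 75.3%, against a median of 49.3% over desert peaks. The cluster peak in the Fstl4–Hspa4 desert held 2 ETS matches and 1 RUNX match, and the one in the cluster nearest Bcl11b held 2 ETS matches and 1 E-box. In the peak farthest from coding genes, 49.2% of the words of 31 bases recur elsewhere in the genome.

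Open chromatin thinned steadily with distance from coding start sites, and the thinning went on inside the deserts. Deserts made up 926 Mb, 38.7% of autosomal sequence without assembly gaps, and held 1.04 desert peaks per 100 kb, against 4.80 near distal peaks per 100 kb in the sequence between 1 and 100 kb from a coding TSS. The ratio of these densities was 0.217 for shared peaks, and 0.235 ± 0.00419 (SD, n = 2) over the own lists, 0.238 in replicate 1 and 0.232 in replicate 2. From 1 to 10 kb the density was 6.56 shared peaks per 100 kb, from 10 to 50 kb it was 4.63, and from 50 to 100 kb it was 3.12. Past the limit it was 1.89 from 100 to 200 kb, 0.850 from 200 to 500 kb, 0.306 from 500 to 1000 kb and 0.0948 beyond 1000 kb, where 73 peaks lay in 77.0 Mb. In each band up to 1000 kb the own lists differed by less than the step to the next band. From 100 to 200 kb replicate 1 had 3.02 peaks per 100 kb and replicate 2 had 2.67, and beyond 1000 kb they had 0.182 and 0.156. The limit of 100 kb does not sit at a sharp break in counts. Shared peaks numbered 636 from 90 to 95 kb and 639 from 95 to 100 kb. Past the limit there were 565 from 100 to 105 kb and 507 from 105 to 110 kb. Their median scores in replicate 1 were 51.5, 57, 51 and 51, and densities for these steps are not given here.

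**Figure D1:**
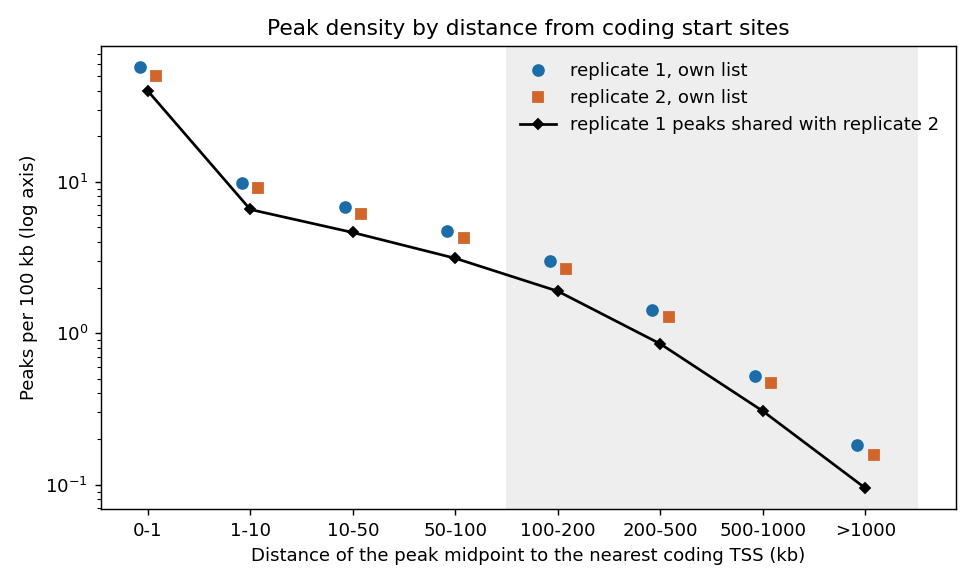
Peaks per 100 kb of sequence (log axis) in bands of distance from the nearest coding TSS, for the own list of each replicate (circles and squares) and for shared peaks (diamonds joined by a line). The grey area marks the deserts, and the shared density falls from 6.56 at 1 to 10 kb to 0.0948 beyond 1000 kb.

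Desert peaks were gathered in a small part of the deserts. There were 2345 deserts, with a median length of 184 kb and a longest of 5.21 Mb. Of these, 1449 (61.8%) held at least 1 desert peak, 896 held none, and 520 had no peak in either replicate's own list. The number per desert had a median of 1 and a maximum of 192, and 164 deserts (6.99%) held 50% of all desert peaks. Longer deserts reach farther from coding start sites, and the falls of density with distance and with length were not separated here. Density was lower in longer deserts. Those under 50 kb had 3.59 desert peaks per 100 kb, those of 50 to 200 kb had 2.64, those of 200 to 500 kb had 1.85, those of 500 to 1000 kb had 0.886, those of 1000 to 2000 kb had 0.569, and the 70 longer ones had 0.211. Among 1827 deserts with 50 kb or more of sequence, density ran from 0 to 25.004 per 100 kb, with a median of 0.526 and an upper quartile of 2.13. The counts of the own lists had a Spearman's rho of 0.899 across the 2345 deserts, which describes the deserts and shares their length. Chromosomes ranged from 0.656 desert peaks per 100 kb of desert on chromosome 4 to 1.56 on chromosome 13.

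**Figure D2:**
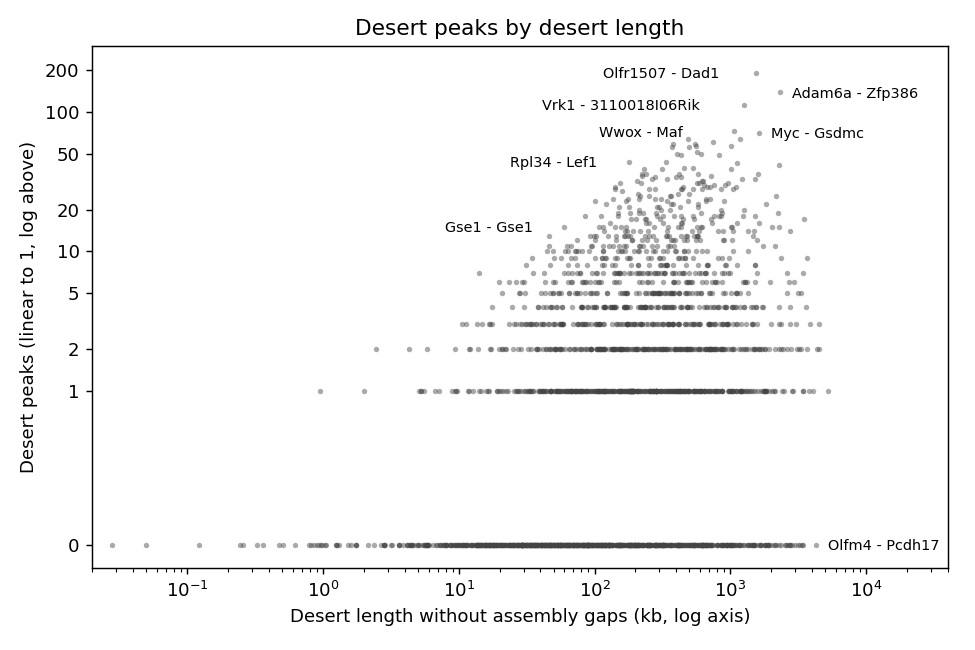
Each point is 1 of 2345 deserts, with its length without assembly gaps (log axis, kb) against its number of desert peaks (axis linear up to 1 and log above). Olfr1507–Dad1 stands highest with 192 peaks, and Olfm4–Pcdh17, 4.24 Mb long, is at 0.

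The fullest desert was the T cell receptor alpha and delta locus, whose gene segments are rearranged in thymocytes. It lies between the olfactory receptor gene Olfr1507 and Dad1 (chr14:52595750-54153913) and held 192 desert peaks, or 12.3 per 100 kb, with 249 peaks in the own list of replicate 1 and 279 in that of replicate 2. In this locus 130 of the 192 peaks lay within 1000 bp of the start of an annotated segment. The immunoglobulin heavy chain locus came next: the desert between Adam6a and Zfp386 held 139 desert peaks, with 199 and 179 in the own lists. Of 140 desert peaks in the whole heavy chain locus, 72 were within 1000 bp of a segment start. For neither locus is the share of sequence this near a segment start given here. In both loci many peaks overlapped a neighbour, such as those 1042.34 and 1042.36 kb from the TSS of Olfr1507. These counts thus hold some open sites more than once, and ranks with overlapping peaks merged are not given here. The kappa light chain locus, with 166 segments, held 3 desert peaks in 3056 kb of desert, and the lambda locus held 0 in 125 kb, where the own lists had 1 peak and 0. The T cell receptor beta and gamma loci held 9 each, in 66.8 kb and 118 kb of desert. Median scores of desert peaks were 49.5 and 48.5 in the alpha and delta locus, 62 and 54 in the beta locus, 54 and 54 in the gamma locus, and 41 and 33 in the heavy chain locus, for replicates 1 and 2. Together the 6 loci held 353 desert peaks (3.67%), and the other 9272 had a density of 1.01 per 100 kb.

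Outside antigen receptor loci, the desert between Vrk1 and 3110018I06Rik (chr12:106130718-107388631) held 113 desert peaks, with 165 and 152 in the own lists. The adjoining desert between 3110018I06Rik and Bcl11b held 39, with 47 and 51 in the own lists, and 27 of the 39 were nearer Bcl11b. Wwox–Maf held 73, of which 36 were nearer Maf, a transcription factor of helper T cells. Myc–Gsdmc held 71 (108 and 97 in the own lists), from 105 to 1671 kb beyond the TSS of Myc, a regulator of growth and proliferation. The strongest of them, by the lower rank of both scores, lay 1480 kb from Myc in an intron of the lincRNA gene Gm41335 (chr15:63467036-63467185) and scored 110 and 115. Gadd45g–Diras2 held 64 (93 and 73 in the own lists), and Cd83–Jarid2 held 61 (87 and 89). Foxo1–Cog6 held 59 (87 and 76 in the own lists), with 35 nearer Foxo1, a factor that keeps T cells quiescent. Uaca–Tle3 held 59 (79 and 73), with 28 nearer Tle3, a co-repressor partner of TCF7 and LEF1. Nr5a2–Ptprc held 57 (99 and 87), of which 38 were nearer Ptprc, which encodes CD45, the phosphatase of all white blood cells. Runx1–Setd4 held 57 (101 and 78), with 36 nearer Runx1. Gm11361–Sox4, Tbc1d1–Klf3 and Satb1–Kcnh8 held 56, 56 and 52. The 20 fullest deserts held 1415 desert peaks (14.7%) in 16.8 Mb.

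Peaks within these deserts were unevenly placed. In Vrk1–3110018I06Rik, 76 of 113 lay in clusters, and in Uaca–Tle3 48 of 59 did, but in Myc–Gsdmc only 21 of 71 did and in the heavy chain desert 40 of 139. In Celf2–Gata3 all 42 desert peaks were nearer Gata3, a factor required from the earliest T cell stages, at a median of 314 kb from it. Of the 36 in Ets1–Kirrel3, 35 were nearer Ets1, at a median of 239 kb. Satb1, a chromatin organiser of thymocytes, had 68 in its flanking deserts, but 30 were nearer Satb1 than the gene on the other side.

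**Figure D3:**
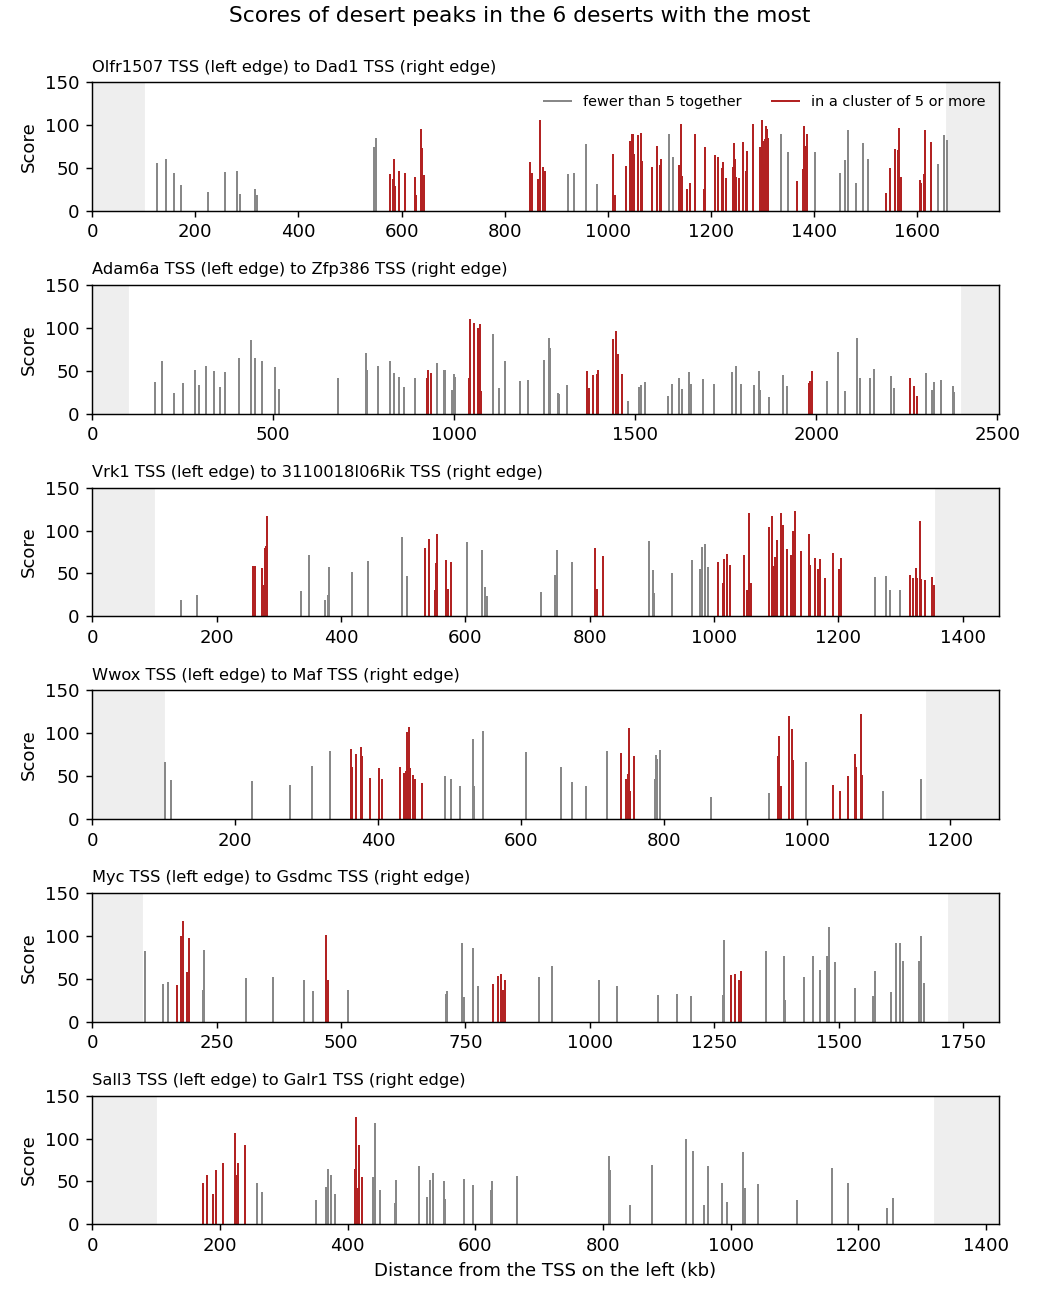
Position (kb from the TSS on the left) and score in replicate 1 of each desert peak in the 6 fullest deserts, with peaks in clusters of 5 or more in red, others in grey, and the 100 kb beside each coding TSS shaded. Peaks bunch at a few places in Vrk1–3110018I06Rik (76 of 113 in clusters) and are spread out in Myc–Gsdmc (21 of 71).

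Among deserts with 50 kb or more of sequence ranked by density, other deserts led, and no desert was among the 20 fullest and the 20 densest at once. Densities in the 20 densest ran from 15.7 to 25.004 per 100 kb. The densest of this size lay inside Gse1 between its own start sites, with 15 desert peaks in 60.0 kb and 23 and 16 in the own lists. Rpl34–Lef1 held 44 in 180 kb, or 24.4 per 100 kb, with 55 and 56 in the own lists, and 42 of them were in clusters. Lef1 encodes a transcription factor of early thymocytes. Commd9–Ldlrad3 held 23 in 100 kb (30 and 32 in the own lists). Ets2–Psmg1 held 18 in 84.6 kb (19 and 23). Tnfaip3–Olig3 held 29 in 141 kb (40 and 32), beside the gene of A20, an inhibitor of NF-kB signalling. Tax1bp1–Jazf1 held 31 (44 and 54) and Haao–Zfp36l2 held 28 (36 and 35), the latter beside an RNA-binding protein of thymocyte development. Cd24a–Qrsl1 held 22 (29 and 25), and Prkcq–Pfkfb3 held 12 (13 and 14). Prkcq encodes the kinase PKC-theta of T cell receptor signalling.

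Several of the longest deserts without a desert peak lay beside genes of cadherins and synaptic adhesion proteins. The 10 longest ran from 2.69 to 4.24 Mb and covered 31.5 Mb, in which the own lists held 21 peaks in replicate 1 and 5 in replicate 2. Olfm4–Pcdh17 was the longest, with 3 and 0 peaks in the own lists. Igfbp7–Adgrl3, Cdh6–Cdh9, Tenm2–Mat2b and Cdh8–Cdh11 followed, with 3 and 0, 2 and 0, 2 and 1, and 1 and 0. Cdh6, Cdh8, Cdh9 and Cdh11 are cadherins, and Adgrl3 and Tenm2 are synaptic adhesion proteins. Lrfn5–Fscb, 2.75 Mb long, had none in either list. Of 240 deserts of 1 Mb or more, 61 held no desert peak.

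Deserts beside genes of the T cell lists held more desert peaks per 100 kb than all deserts, and those beside neuronal genes fewer, given here as counts and medians. The excess was not particular to the T cell lists. Erythroid (4.29), myeloid (4.21), mesenchymal (2.78) and endothelial (1.43) lists, with few deserts each, were also above all deserts. Thymic epithelial (0.677) and B cell (0.688) lists were below. Over all 2345 deserts the density was 1.04 per 100 kb, and its median over deserts with 50 kb or more of sequence was 0.526. Density was lower in longer deserts, as given above, and the lists were not matched for desert length. The part of length in their differences was not tested. A count given for a gene covers its flanking deserts, which the gene on the other side shares. Of 32 T lineage transcription factor genes, 17 flanked 21 deserts. Of these, 20 held desert peaks, 510 in all, at 4.61 per 100 kb with a median of 3.86. In the own lists these deserts had 6.68 and 6.30 per 100 kb, against 1.69 and 1.51 over all deserts. After Satb1, the members with the most were Foxo1 (59), Runx1 (57), Lef1 (44), Id2 (43), which encodes an inhibitor of E proteins, and Gata3 (42). In the same order, 35, 36, 30, 27 and 42 were nearer the listed gene. Of 26 T cell receptor signalling genes 7 flanked 8 deserts, all of which held desert peaks, at 4.13 per 100 kb. Ptprc had 57 of the 102, Prkcq 24 and Rasgrp1, an activator of Ras in thymocytes, 13, with 38, 16 and 7 nearer the listed gene. Of 26 early thymocyte genes 9 flanked 13 deserts, at 3.92 per 100 kb, and 10 of the 13 held desert peaks. Bcl2l11, which encodes the death protein BIM, had 36 (18 nearer it), the Notch target Hes1 34 (22 nearer it), Bcl2 23 (13 nearer it) and Kit 22. Of the 22 beside Kit, 7 were nearer Kit. All of these lay in deserts shared with Pdgfra (5) and Kdr (17), genes of the mesenchymal and endothelial lists. They are counted in those lists too. The 4 deserts beside T helper and cytotoxic genes had 2.72 per 100 kb, and Ifng had 19 desert peaks, 8 of them nearer Ifng.

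Of 48 developmental regulators outside blood, 44 flanked 65 deserts, with 1.01 desert peaks per 100 kb and a median of 0.442. Some of these deserts were full although the gene's own promoter held no shared peak. Sall3 had no promoter peak, yet the Sall3–Galr1 desert held 64 desert peaks (97 and 83 in the own lists), 44 of them nearer Sall3, with top scores of 125 and 127. Sox9 and Sox5 also had no promoter peak, and their deserts held 49 and 41, of which 8 and 14 were nearer the listed gene. Zfhx3, whose promoter held a peak, had 55, with 48 nearer it. Shh had 0. Of 55 annotated neuronal adhesion and synapse genes, 54 flanked 122 deserts, of which 62 held desert peaks. Their density was 0.122 per 100 kb with a median of 0.0469, and 0.241 and 0.213 in the own lists. Csmd3 had the most, 23 in 5.11 Mb, followed by Cdh18 with 16 in 3.56 Mb. Only 4 of the 23 were nearer Csmd3 and 1 of the 16 nearer Cdh18. The 122 deserts covered 153 Mb, and all 2345 deserts 926 Mb.

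Lists of the other cell types of the organ flanked few deserts. Thymic epithelial genes flanked 4 deserts with 10 desert peaks, at 0.677 per 100 kb, and B cell genes 4 deserts with 19, at 0.688 per 100 kb, of which Ebf1 had 15. Myeloid genes flanked 3 with 22, at 4.21 per 100 kb, and Irf8 had 9 of these. Erythroid genes flanked 2 with 14, at 4.29 per 100 kb, 10 of them beside Zfpm1, the partner of GATA factors. Endothelial genes flanked 5 with 28, at 1.43 per 100 kb, and mesenchymal genes 9 with 54, at 2.78 per 100 kb, of which Dcn had 23. Of the peaks counted for Ebf1, Irf8, Zfpm1 and Dcn, 9, 7, 5 and 10 were nearer the listed gene. The part of these cell types in the peaks was not tested.

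Desert peaks came in clusters. Neighbouring midpoints were joined where close, and the narrowest gap left unjoined was 12.52 kb. In this way 411 groups of 5 or more peaks held 3116 desert peaks (32.4%) in 249 deserts. These clusters spanned 0.963% of desert sequence, with a median span of 19.5 kb and a median of 6 peaks, and 80 of them held 10 or more. Groups of 2 to 4 held 3755 peaks (39.0%), and 2754 (28.6%) stood alone. In the own lists, which hold more peaks, 40.7% ± 0.771 (SD, n = 2) were in clusters. Clusters in antigen receptor loci numbered 21, with 199 peaks. The value depends on the joining distance: 14.6% of desert peaks were in clusters with 5 kb and 49.5% with 25 kb.

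The largest cluster held 25 peaks over 117 kb in Vrk1–3110018I06Rik (chr12:107118496-107235445), 1088 kb from Vrk1 and 253 kb from 3110018I06Rik, with 36 and 39 peaks in the own lists. Its strongest peak, printed above, lay 144 bp from the start of the lincRNA gene Gm16084. The third cluster in size stood in the neighbouring desert, with 22 peaks over 67.9 kb, 187 kb from Bcl11b, and 27 and 28 in the own lists. Fstl4–Hspa4 held the second, with 23 peaks over 79.5 kb, 22 of them in introns, and 27 and 30 in the own lists. Haao–Zfp36l2 held 21 (29 and 27 in the own lists), Gm11361–Sox4 held 20 (28 and 25) beginning 110 kb from Sox4, and Chst11–Slc41a2 held 20 (25 and 25). Ets1–Kirrel3 held 19 in 35.3 kb, 210 kb from Ets1, and Opa1–Hes1 held 17 in 51.7 kb, 179 kb from Hes1. In the T cell receptor alpha and delta locus a cluster held 20 peaks, some of which overlap each other. They sat in sequence that recurs elsewhere, with a median of 43.3% of their words of 31 bases found again in the genome. In 21 of the 411 clusters this median was over 10%. Among them, a group of 16 peaks over 7.39 kb in Gm21863–Asap2 (chr12:20226896-20234285), singled out after its values were seen, had a median recurrence of 18.8% and top scores of 38 and 39.

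Peaks in clusters differed from lone ones in score and in sequence. Median scores were 56 and 50 in clusters, 50 and 41 in groups of 2 to 4, and 46 and 33 for lone peaks, in replicates 1 and 2. In the own lists 69.5% ± 3.72 (SD, n = 2) of clustered peaks were shared with the other replicate, 66.9% in replicate 1 and 72.2% in replicate 2, against 52.1% and 64.5% of lone peaks. A start site of any annotated biotype, antigen receptor segments included, lay within 1000 bp of 10.5% of clustered and 5.63% of lone peaks. The 199 clustered peaks in antigen receptor loci were not set apart in these shares.

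By place, 4085 desert peaks (42.4%) lay in introns, 5144 (53.4%) between genes and 396 (4.11%) in exons of any annotated gene. Introns made up 28.2% of desert sequence, intergenic sequence 70.5% and exons 1.27%, so that peaks were 1.504 times as frequent in introns, 0.758 times in intergenic sequence and 3.23 times in exons as their sequence. In the own lists the intron ratio was 1.45 ± 0.0260 (SD, n = 2) and the intergenic ratio 0.782 ± 0.00785. For near distal peaks the intron ratio of the own lists was 1.02 ± 0.0119, below the desert value in both replicates, 1.03 and 1.02 against 1.47 and 1.44. Introns of coding genes held 28.6% of desert peaks and introns of non-coding genes alone 13.9%, each more than their share of sequence (19.9% and 8.33%). Median scores were alike by place, 51 and 42 in introns, 49 and 40 between genes, and 51 and 46 in exons.

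In all, 2887 desert peaks (29.99%) lay inside 576 coding genes, far from any of their coding start sites. Wwox, a long tumour suppressor gene, held 53 (73 and 66 in the own lists). Fstl4 held 44 (53 and 61), Msi2, an RNA-binding regulator of blood stem cells, 36 (56 and 39), and Arid1b, a subunit of the BAF chromatin remodeller, 35 (50 and 40). The annotated coding gene Gm20388 also held 44, but its model spans 4435 kb and covers other genes. Zfhx3 held 33, Jazf1 31, and Ttc28, Rora and Cdh13 28 each. Rora encodes a nuclear receptor. The 24 peaks in Mad1l1 had the highest median score among the 15 genes with the most, 80.5 in replicate 1, while the 24 in Rad51b had the lowest, 39.5. Deserts with the same coding gene on both sides, between separate start sites, numbered 217 and held 330 desert peaks, at 0.836 per 100 kb.

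Some desert peaks were at starts of transcripts that the rule does not count as coding. A TSS of any annotated biotype lay within 1000 bp of 757 desert peaks (7.86%), against 9.76% of near distal peaks. The own lists gave 7.31% ± 0.580 and 9.53% ± 0.120 (SD, n = 2). The nearest such transcript belonged to a lincRNA gene for 270 peaks, to a T cell receptor variable segment for 120, to an immunoglobulin variable segment for 56, and for 50 peaks to a coding gene of which this transcript is annotated as non-coding. These 50 belonged to 40 genes. Only 1022 of the 9625 desert peaks were over 100 kb from the start sites of all biotypes.

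Of the 15 strongest desert peaks, 6 lay within 1000 bp of a transcript start of any biotype and 9 did not. The peak in Ubr2–Mrps10 lay 964 bp from a non-coding transcript start of Trerf1, and one in Kif2a–Smim15 (chr13:107890136-107890285, scores 128 and 140) lay 147 bp from one of Zswim6, both coding genes. The peak in Zfat–Khdrbs3 lay 235 bp from the start of the lincRNA gene Gm20732, and one in Cpeb2–C1qtnf7 (chr5:43355336-43355485, scores 135 and 136) 152 bp from Gm43020. Below the 15 strongest, a peak in Ccdc54–Cblb 2 bp from the start of Dubr, a lincRNA gene, scored 126 and 125. Another, beside Lef1 and 186 bp from the start of 2010110G14Rik, scored 120 and 125. The strongest of all, in Gm11361–Sox4, lay inside an intron of 2610307P16Rik, a non-coding gene, 441 kb from Sox4, with no start site within 1000 bp. Desert peaks with 8 or more CpG dinucleotides numbered 288 (2.99%), and 28.1% of these were within 1000 bp of a start site, against 7.24% of the others.

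A peak 24 bp from the start of Gm4258, in Nr5a2–Ptprc, scored 128 and 134 and lay 277 kb from Ptprc. The hairpins of Mir181a-1 and Mir181b-1 lie in the same desert, with 1 desert peak within 10 kb that scored 42 and 49. miR-181a is known as a regulator of T cell receptor sensitivity in thymocytes. The mature 5p products, from RefSeq (GRCm38.p6), are given with the seed, bases 2 to 8, in capitals.
mmu-miR-181a-5p, chr1:137966468-137966490, plus strand: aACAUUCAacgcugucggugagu
mmu-miR-181b-5p, chr1:137966650-137966673, plus strand: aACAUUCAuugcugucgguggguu
Both share the seed. Of 131 microRNA hairpins in deserts, 33 had a desert peak within 10 kb, and neighbouring hairpins can share a peak. The same share for other desert positions is not given here, so this count shows nothing particular to microRNAs. Mir148a had 2, with top scores of 126 and 129, and Mir29b-1 had 2, with 77 and 73.

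Desert peaks were weaker than other shared peaks in both replicates. In replicate 1 the median score was 50 (quartiles 36 and 70) for desert peaks, 57 (41 and 79) for near distal peaks and 83 (51 and 116) for promoter peaks. In replicate 2, where the highest score of an overlapping peak was taken, the medians were 41, 48 and 85. Scores fell with distance, from medians of 51 and 42 at 100 to 200 kb to 46 and 36 beyond 1000 kb. Still, 334 desert peaks (3.47%) were in the upper 10% of scores of both lists, against 4.72% of near distal and 35.4% of promoter peaks. Hotspots, the wider enriched regions the authors deposited, had a median width of 282 bp at desert peaks, 301 bp at near distal peaks and 828 bp at promoter peaks.

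**Figure D4:**
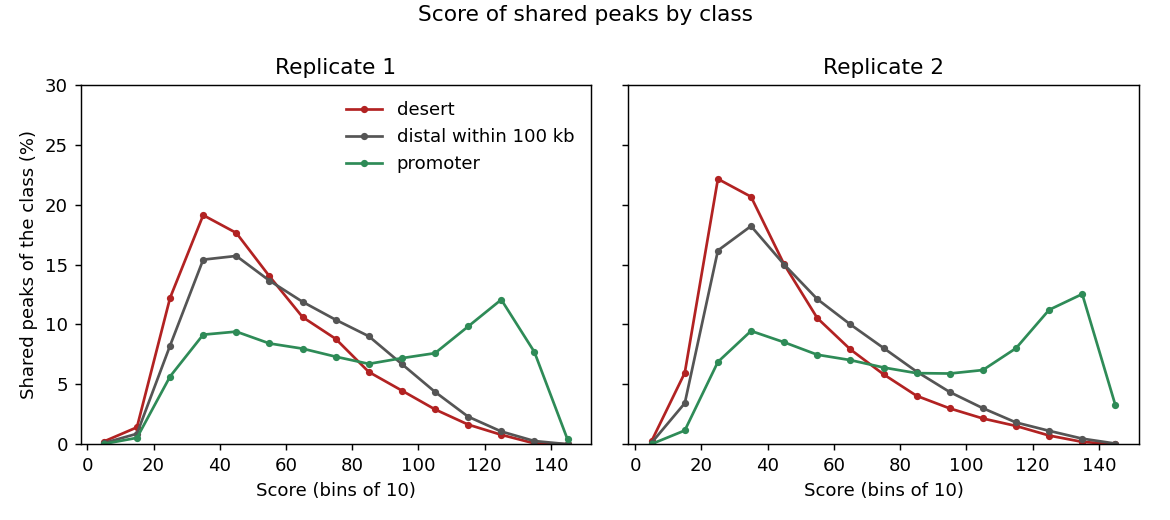
Share of shared peaks (%) by deposited score in bins of 10, for replicate 1 (left) and replicate 2 (right), in deserts, distal within 100 kb, and promoters. Desert peaks lie lowest, with medians of 50 and 41, and promoter peaks have a second maximum above 120.

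Fewer peaks of the own lists were shared in deserts than nearer to genes. In replicate 1, 61.4% of 15686 peaks in deserts overlapped a replicate 2 peak, against 67.5% of near distal peaks, and in replicate 2 it was 69.3% of 13980 against 74.1%. When near distal peaks were weighted to the score deciles of the desert peaks, the order turned. The weighted shares were 58.9% and 65.5%, and the difference in replicate 1 went from −6.17 to 2.45 percentage points.

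The sequence of desert peaks differed from that around them. Their median GC content was 49.3%, against 39.7% for all desert sequence, 50.7% for near distal and 62.0% for promoter peaks. Repeats made up 12.45% of their bases on average and 36.5% of desert sequence. CpG dinucleotides averaged 2.39 per peak, against 2.87 in near distal and 10.8 in promoter peaks.

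Matches to RUNX, ETS, E-box and CTCF letters were more frequent in desert peaks than in flanks, windows of equal width shifted by 1000 bp that touched no peak. RUNX letters were in 22.3% of desert peaks and 10.6% of 9485 flanks, and ETS letters in 34.4% and 17.6%. RUNX and ETS proteins are abundant factors of thymocytes. The E-box CAGCTG was in 16.9% and 6.24%, the E-box CACCTG in 22.0% and 9.06%, TCF7/LEF1 letters in 15.2% and 11.1%, and AP-1 letters in 5.72% and 4.48%. CTCF letters, of the factor that anchors chromatin loops, were in 7.31% and 1.14%, a ratio of 6.42. In the own lists this ratio was 4.90 ± 0.543 (SD, n = 2). GATA letters were in fewer desert peaks than flanks, 6.82% and 10.01%, as was the CCAAT box of NFY, 13.8% and 20.2%. Base composition also differed, as given above, and its part in these shares was not tested. A peak can hold letters of several sets, and matches of different sets can share bases.

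Against near distal peaks, the differences were small. ETS letters were in 34.4% of desert and 31.3% of near distal peaks, with a difference of 1.67 ± 0.451 percentage points in the own lists, and TCF7/LEF1 letters in 15.2% and 13.3%, with 1.98 ± 0.0420 (SD, n = 2). In promoter peaks these were in 20.4% and 6.65%. For RUNX letters, 22.3% and 20.996%, the own lists differed in sign, −0.131 and 0.642 percentage points. CTCF letters were in 7.31% of desert and 8.36% of near distal peaks, lower in both own lists by a mean of −1.02 ± 0.114 percentage points. With near distal peaks weighted to the desert scores the share was 7.49%, and the difference was −0.173.

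Lone desert peaks held CTCF letters more often than clustered ones. The letters were in 10.5% of lone peaks, 6.82% of those in groups of 2 to 4 and 5.10% of clustered peaks, and the own lists gave 8.74% and 7.64% for lone and 4.53% and 4.65% for clustered peaks. Of the 704 desert peaks with the letters, 41.1% stood alone, against 27.6% of the others, and their median scores were 59 and 45 against 50 and 41. E-boxes and ETS letters went the other way. CAGCTG was in 19.4% of clustered and 15.03% of lone peaks, CACCTG in 25.1% and 19.4%, and ETS letters in 36.6% and 31.9%. The own lists had the same order in both replicates for these 3 sets, with CAGCTG in 16.7% ± 0.303 of clustered and 12.47% ± 0.662 of lone peaks (SD, n = 2). RUNX letters, in 22.8% and 23.4%, and TCF7/LEF1 letters, in 15.2% of both, differed by no more than the spread between the own lists. Clustered peaks also had higher scores, as given above, and the part of score in these shares was not tested.

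**Figure D5:**
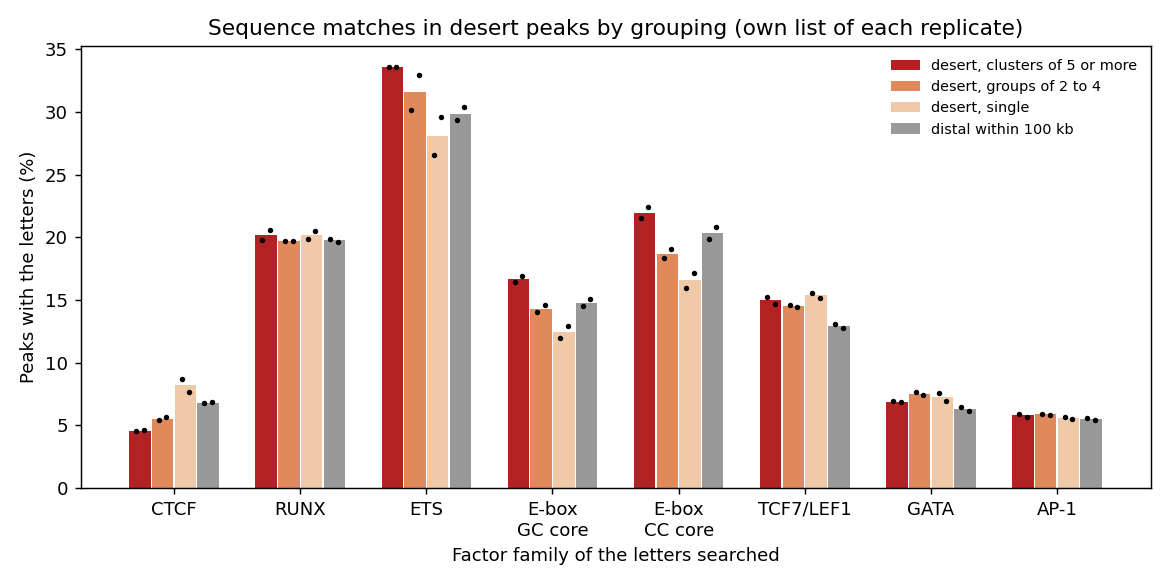
Share of peaks (%) that hold the letters of each factor family, for desert peaks in clusters of 5 or more, in groups of 2 to 4 and alone, and for distal peaks within 100 kb. Bars are means of the own lists and dots are the replicates, and the CTCF share is highest in lone peaks (8.74% and 7.64%) while the E-box shares are highest in clusters.

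The 10 desert peaks farthest from coding genes lay 1450 to 2140 kb from a coding TSS, with 3 in Cntnap5b–Cdh20, 2 in Kcnt2–B3galt2 and 2 in Slc10a2–Efnb2. The second farthest, 1968 kb from Ptprd, scored 27 and 16 and had 86.7% recurring words. In Pcdh20–Pcdh9, a peak 1962 kb from Pcdh20 (chr14:90433256-90433405) held CTCF letters and scored 55 and 32. Over all desert peaks, 178 (1.85%) had over 50% recurring words, against 1.43% of near distal peaks.

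A few deserts, singled out after their values were seen, differed between replicates. Among 259 deserts with 30 or more peaks over both own lists, the count of replicate 2 divided by that of replicate 1 had a median of 0.902, near the 0.891 of all deserts. In Gm14147–4921509C19Rik on chromosome 2, replicate 1 had 30 peaks over 36.4 kb, with a median score of 5 and a highest of 11, and replicate 2 had 0. In Immp2l–Lrrn3 on chromosome 12, replicate 1 had 81 peaks with a median score of 8 and replicate 2 had 22 with a median of 6, and 7 were desert peaks. In Cdh18–Basp1 the order was opposite, with 24 peaks in replicate 1 (median score 40.5) and 49 in replicate 2 (median score 12). These groups of low scores lay mostly outside the shared set, with 0, 7 and 15 desert peaks in the 3 deserts.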

How the data were processed

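DNase-seq of newborn mouse thymus, 2 replicates of 1 group, was analysed from peak lists on mm10. Each deposited peak has a score, and each deposited hotspot a −log10 of a q-value, lowest 1.30 and capped at 100, called for each library alone, per the text that accompanies the files. Hotspots were used for their width. The aligner, the caller, its thresholds and the number of reads: not given in the sources used here. Depth is therefore unknown and no value was scaled by it.

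Computed here were distances to coding start sites of GENCODE M21 (52063 on autosomes), desert stretches, groups, place by midpoint (exon before intron), repeats, GC and motif letters in GRCm38, and 31-base words found elsewhere in the genome. Positions count from 1. Peaks of 1 list can overlap each other, and 260 desert peaks overlapped a neighbour, many of them in the T cell receptor alpha and delta and heavy chain loci. Scores of 3.71% of desert peaks are written with a decimal point in the deposited list. Values are descriptions of the shared list, with mean ± SD over the own lists. Steps were tested on simulated data with known deserts, clusters and overlaps, using numba 0.67.0, pandas 2.3.3, numpy 2.4.6, matplotlib 3.10.9 and scipy 1.17.1 under Python 3.11.15.

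Members, the 12 gene lists and the 9 motifs were chosen with earlier results of these data known. Named genes are those flanking the 20 fullest deserts and the 20 densest with 50 kb or more of sequence, the 15 largest clusters, the 15 strongest and 10 farthest peaks and the 10 longest deserts without peaks, the 15 genes with most peaks inside, non-coding starts at the 15 strongest such peaks, antigen receptor loci, and up to 6 members of each list. Others named (listed genes without a promoter peak, hosts of a named peak, microRNAs, deserts that differ between replicates, and genes whose deserts share a printed sequence) were chosen after their values were seen. Alternatives were other overlap, score, distance, start site, joining and score-weighting choices and each replicate alone. Off-autosome peaks were left out of the results, and some results are not reported here.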

Additional observations from a re-analysis of the deposited data

Results flagged for a closer look

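Desert peaks by the same distance rule were also present on the sex chromosomes, which the rule leaves out. Chromosome X held 215 in both replicates, at 0.312 per 100 kb of desert, with 392 and 360 peaks in the own lists and median scores of 44 and 35. Chromosome Y held 7, with 19 and 16 in the own lists and median scores of 26 and 21.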

How the results depend on the processing

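The number of desert peaks was 4412 with the stronger 50% of peaks, 19893 with a limit of 50 kb, 1022 with start sites of all biotypes, and 13980 to 15686 with each replicate alone. For the same settings the density ratio to near distal peaks was 0.174, 0.299, 0.135 and 0.232 to 0.238, and the intron share was 44.9%, 46.0%, 46.9% and 40.5% to 41.5%. The clustered share was 22.4%, 35.5%, 18.4% and 40.2% to 41.2%. The CTCF share was 8.57%, 7.35%, 8.71% and 5.74% to 5.86%. With receptor and immunoglobulin segments as start sites, the ratio was 0.211, the intron share 43.9% and the clustered share 31.5%. A reciprocal overlap of 50% gave a clustered share of 28.9% and a CTCF share of 7.63%. Joining distances of 5 and 25 kb gave clustered shares of 14.6% and 49.5%. The stronger 50% of peaks raised the share of replicate 1 desert peaks with a counterpart to 74.9%. Score weighting moved the CTCF difference from near distal peaks from −1.04 to −0.173 percentage points and turned the difference in sharing from −6.17 to 2.45. Chosen after seeing the data, leaving out peaks written with a decimal point gave a clustered share of 30.4% and a CTCF share of 7.53%, and leaving out peaks with mostly recurring words moved no value beyond the spread between replicates. No paired analysis was possible because there is 1 group. The unknown depth limits all counts of peaks that 1 list holds and the other lacks.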
